A study of Mus musculus with 8 samples.

Results

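The 43 genes described here encode the kinetochore and the spindle checkpoint. They were chosen by symbol, as a list of named protein-coding genes. The rule did not use their values, but earlier results of these data were known. All 43 were found among the 54532 genes of the deposited table, all lie on autosomes, and all 43 passed the filter of the test, a mean above 1 FPKM (fragments per kilobase of gene, relative to a scaled library size) in both groups, which 12141 protein-coding genes passed. The data are bulk RNA-seq of whole testes from 4 control mice, *Spdya* fl/fl, and 4 conditional knockout (cKO) mice, *Spdya* fl/fl;*Ddx4*-CreERT2, with 1 library per mouse. In both groups spermatogenesis was synchronized by blocking and then restoring retinoic acid (RA), both alleles of *Spdya* carried loxP sites, and both received tamoxifen, which the labels place at 7.5 and 8.5 days after RA was restored (RA7.5 and RA8.5). Testes were taken at RA11.5, which the study equates with mid to late pachynema. The study's methods describe juvenile C57BL/6J mice with littermate controls. The Cre is knocked into *Ddx4*, a gene of the germ line, so deletion of exon 2 of *Spdya* is limited to germ cells that respond to tamoxifen, while Sertoli, Leydig and other somatic cells of the testis keep the gene. Cells that escape deletion stay in the sample.

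The kinetochore is the protein structure that joins a centromere to spindle microtubules. Its inner part, the constitutive centromere-associated network (CCAN), sits on nucleosomes that carry the histone variant CENP-A, and its outer part, made of the Knl1, Mis12 and Ndc80 complexes, binds microtubules. The spindle checkpoint works from unattached kinetochores and holds back the anaphase-promoting complex (APC/C) until chromosomes are attached. In the testis these genes serve the mitoses of spermatogonia and both meiotic divisions, and in meiosis I shugoshin and MEIKIN keep sister centromeres together. Pachytene spermatocytes are in prophase, before the first division.

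No kinetochore or checkpoint gene passed the test of a difference between cKO and control testes. The test was limma on log2(FPKM + 0.1). A call of differential expression (DE) needed an adjusted p (Benjamini-Hochberg) below 0.05 together with a log2 fold change over 1 in size, and 0 of the 43 genes met it, where 0.0165% of all genes tested did. The smallest adjusted p among the members was 0.456. At an unadjusted p below 0.05, 0 members were higher in the cKO libraries, against 5.89% of all genes tested, and 1 was lower (*Cenpu*), against 5% of all genes. The estimated log2 fold changes ran from -0.37 for *Ska1* to 0.50 for *Cenpa*, with standard errors of 0.10 to 0.33, and 33 of the 43 lay within 0.2 of 0. The 95% interval stayed within 1 of 0 in 42 genes, all but *Cenpa*, and within 0.5 of 0 in 28. A 2-fold change thus lay outside the interval of every member but *Cenpa*. As folds the intervals reached from 0.56 (*Ska1*) to 2.14 (*Cenpa*). Their width differed between genes, so how small a change could be told from none with 4 libraries in each group differed too.

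**Figure D1:**
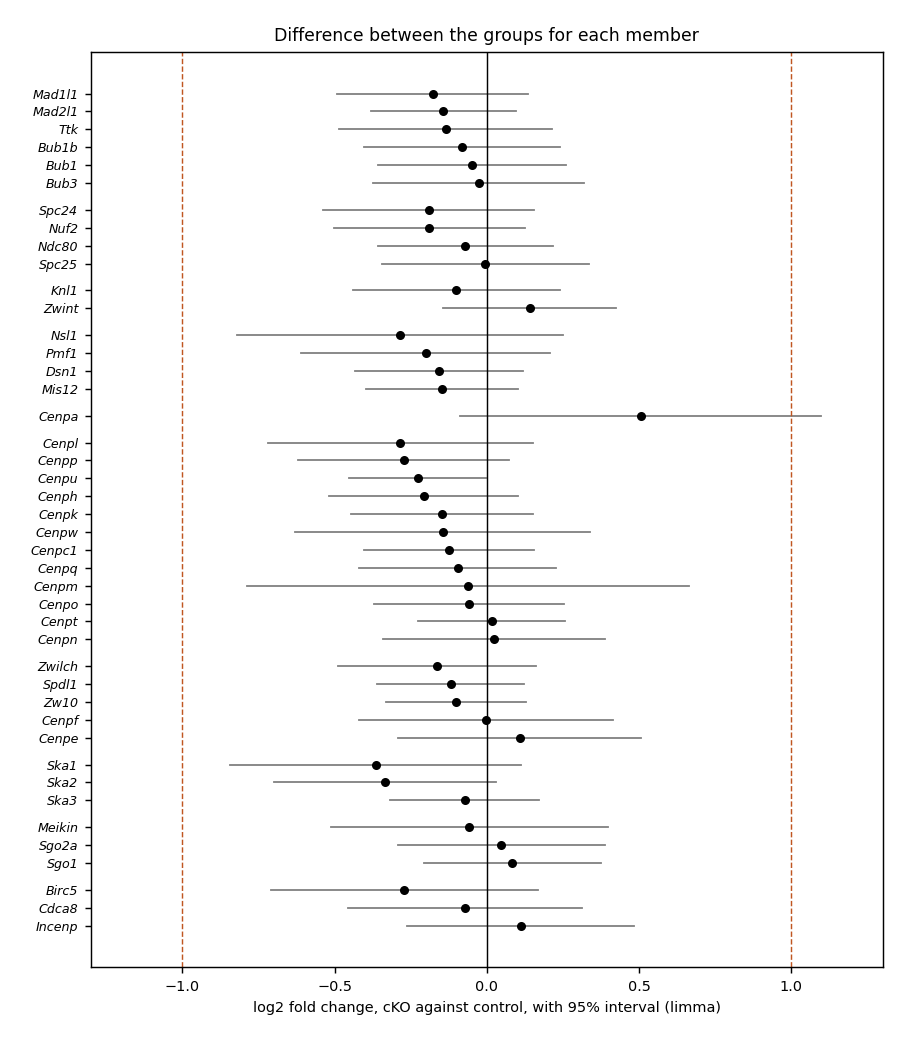
Log2 fold change of each of the 43 genes, cKO against control, on the log2(FPKM + 0.1) scale (x axis), grouped from top to bottom as checkpoint, Ndc80, Knl1, Mis12, CENP-A, CCAN, corona, Ska, cohesion and passenger genes. Points are limma estimates, bars their 95% intervals (4 libraries per group) and dashed lines a log2 fold change of -1 and 1. Only the bar of *Cenpu* ends short of 0, and only that of *Cenpa* passes 1.

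Although no gene passed the test, more members lay below 0 than above it. The log2 fold change was below 0 in 35 of 43 members (81.4%), against 48.0% of all genes tested, and the median was -0.10 for the members and 0.01 for all genes. These genes are expressed together, so the 35 are not 35 separate observations, and no test was made of the list. The count depended on single libraries. Without control replicate 3, in which these genes were high, 23 of the 43 lay below 0, with medians of -0.06 for the members and 0.0041 for all genes. Without cKO replicate 1, the highest cKO library in 37 members, 38 lay below 0, with medians of -0.20 and 0.0054. With the values rescaled to TPM, in which every library has the same total per length, 25 lay below 0 and the medians were -0.02 for the members and 0.09 for all genes, while the members stayed 0.11 below all genes on the log2 scale in both scalings. In whole testis, fewer cells of a type and less RNA per cell cannot be told apart.

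**Figure D2:**
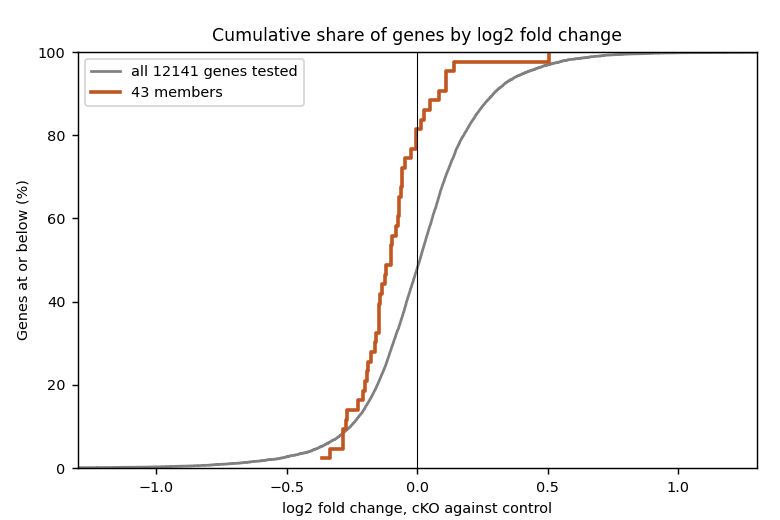
Cumulative percentage of genes (y axis) at or below each log2 fold change, cKO against control (x axis), for the 43 members (orange) and all 12141 genes tested (grey). The orange curve crosses 0 at 81.4% and the grey curve at 48.0%, and the member at the far right is *Cenpa*.

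The stretches before the start sites of some members are shown because promoters of this class are known for paired CCAAT boxes and for the cell cycle homology region, a short element bound by the MuvB complex. Sequences are from RefSeq on GRCm38.p6, 120 bases each, 5' to 3' on the gene's strand, with CCAAT (or its complement ATTGG) and TTTGAA or TTCGAA (or the complement TTCAAA) in capitals, and each runs at most 30 bases into the gene as the deposited table places it.
Bub1 chr2:127831860-127831979, - strand: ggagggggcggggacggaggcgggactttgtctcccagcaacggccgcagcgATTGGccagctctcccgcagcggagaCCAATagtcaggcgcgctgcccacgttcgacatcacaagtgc
Ttk chr9:83834569-83834688, + strand: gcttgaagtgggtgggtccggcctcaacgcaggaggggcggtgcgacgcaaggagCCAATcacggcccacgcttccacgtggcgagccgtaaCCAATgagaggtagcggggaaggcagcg
Cenpa chr5:30666687-30666806, + strand: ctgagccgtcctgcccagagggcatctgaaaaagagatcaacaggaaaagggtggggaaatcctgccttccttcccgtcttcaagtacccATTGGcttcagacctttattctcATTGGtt
Cenpu chr8:46551938-46552057, + strand: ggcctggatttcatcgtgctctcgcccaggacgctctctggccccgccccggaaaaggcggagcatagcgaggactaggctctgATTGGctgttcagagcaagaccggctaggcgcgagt
Cenpn chr8:116921620-116921739, + strand: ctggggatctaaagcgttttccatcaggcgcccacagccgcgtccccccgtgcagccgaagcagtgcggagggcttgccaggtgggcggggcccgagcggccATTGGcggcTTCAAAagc
Cenpw chr10:30200541-30200660, - strand: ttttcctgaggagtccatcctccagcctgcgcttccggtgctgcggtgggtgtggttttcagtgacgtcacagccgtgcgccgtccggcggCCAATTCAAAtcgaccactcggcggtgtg
Ska3 chr14:57826164-57826283, - strand: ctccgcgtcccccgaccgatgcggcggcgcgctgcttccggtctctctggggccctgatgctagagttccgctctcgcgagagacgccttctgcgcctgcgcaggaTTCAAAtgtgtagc
All stretches shown hold a match, while those of the same length for *Birc5*, *Ndc80*, *Nuf2*, *Dsn1* and *Knl1*, not shown, hold none. The stretches of *Bub3*, *Cenpc1*, *Cenph*, *Cenpk*, *Cenpp*, *Mad1l1*, *Mad2l1*, *Pmf1*, *Sgo1*, *Sgo2a* and *Zw10*, also not shown, hold none either. A match within these stretches is thus not general among the members. *Bub1*, *Ttk* and *Cenpa* hold a pair of CCAAT letters in these stretches and *Cenpu* holds a single match. The pair in *Cenpa* begins 109 and 86 bases before the RefSeq start, but lies inside the gene as the deposited table places it. *Bub1*, *Ttk* and *Cenpa* also have cell cycle homology letters beyond the stretches shown, 15, 8 and 17 bases after the RefSeq start. Of the genes whose stretches hold none, *Ndc80*, *Knl1* and *Sgo1* have these letters 30, 32 and 28 bases after the RefSeq start. *Bub3*, *Pmf1* and *Zw10* have them before the start but outside their stretches. In *Cenpn* the cell cycle homology letters begin 9 bases before the RefSeq start and the CCAAT letters 18 bases before it. In *Cenpw* the matches begin 25 and 29 bases before the start and overlap. *Ska3* holds the cell cycle homology letters 14 bases before its start, without CCAAT.

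RefSeq promoter windows, 250 bases before to 50 after the start, were found for 37 of the 43 members, and *Meikin*, *Nsl1*, *Zwilch*, *Incenp*, *Spc24* and *Ska1* had no entry. Either form of the cell cycle homology region (TTTGAA or TTCGAA, both strands) was found in 19 of the 37 genes (51.4%), against 21.7% of the 27025 genes in the promoter table. CCAAT was found in 25 (67.6%), against 41.1%, and both together in 1 window in 15 (40.5%), against 8.61%. The MYB letters AACNG were found in all 37, against 82.4% of all genes. A match of letters is a description and not a bound site. The table of all genes also holds genes that are not expressed in testis.

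The 43 genes were moderately to well expressed in whole testis at RA11.5. Control means ran from 3.17 FPKM for *Cenpl* to 38.9 FPKM for *Zwint*, with a median of 11.5 FPKM, against 9.65 FPKM for all genes tested, and 28 of the 43 lay above that level. Each value rests on 79 to 5211 fragments. Levels per length use the table's gene length, which in 42 of 43 members equals all exonic bases of GENCODE vM21, and this lowers the FPKM of genes with long, seldom used exons.

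**Figure D3:**
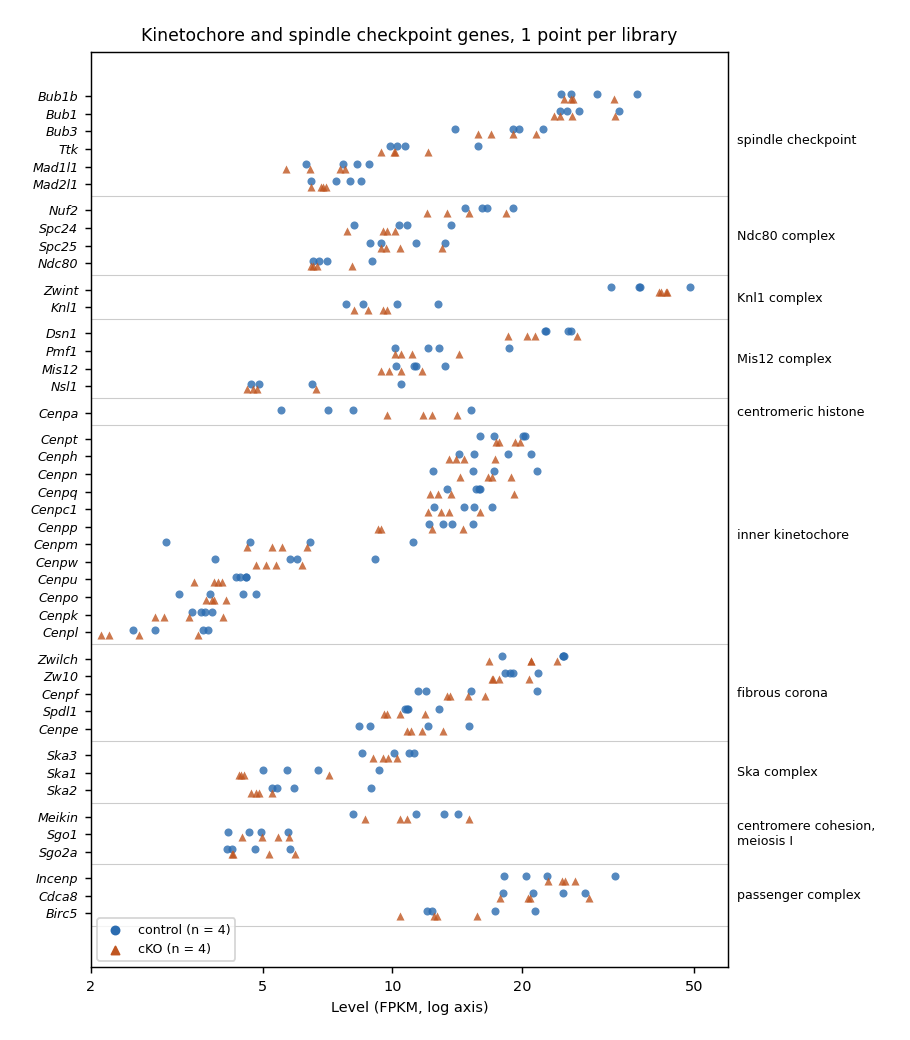
FPKM of each of the 43 genes (log axis) in each library, grouped by complex, with circles for the 4 control and triangles for the 4 cKO libraries. Circles and triangles overlap in every gene except *Cenpu*, where all 4 triangles lie to the left, and the circles of *Cenpm* and *Cenpa* are spread widest.

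All 6 spindle checkpoint genes had a log2 fold change below 0, from -0.18 to -0.03, and none passed the test. This direction depended on single libraries and scaling. Without control replicate 3, *Bub1*, *Bub1b*, *Bub3* and *Ttk* turned above 0, and with TPM *Bub1* and *Bub3* did. *Bub1b*, which encodes BubR1 of the mitotic checkpoint complex, had the highest level of the 6. It measured 29.8, 26.0, 36.8 and 24.5 FPKM in the control libraries and 32.6, 26.0, 26.3 and 25.0 FPKM in the cKO libraries. The groups overlap, and control replicate 3 and cKO replicate 1 are the highest of their groups. *Bub1*, the kinase that marks centromeric chromatin for shugoshin, measured 24.5, 25.4, 33.5 and 27.1 FPKM in controls and 32.8, 24.4, 26.1 and 23.6 FPKM in cKO testes. Its log2 fold change was -0.05 (95% interval -0.36 to 0.26). The same pair of libraries stood highest. *Ttk*, encoding the kinase Mps1 that starts checkpoint signalling, measured 10.2, 10.7, 15.8 and 9.85 FPKM in controls and 12.1, 10.1, 10.1 and 9.40 FPKM in cKO testes. *Mad2l1*, encoding Mad2, was lowest of the 6 in level, with 7.96, 6.46, 8.43 and 7.40 FPKM in controls and 6.90, 6.84, 7.03 and 6.48 FPKM in cKO testes. Its 4 cKO values lay close together and inside the range of the controls, with a log2 fold change of -0.14 (interval -0.38 to 0.09, limma adjusted p = 0.688).

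In the outer kinetochore all 4 Ndc80 complex genes and all 4 Mis12 complex genes lay below 0, with medians of -0.13 and -0.18. In the Ndc80 complex, *Spc25* was at -0.0051 and turned above 0 with TPM, centred libraries, array weights, voom and some libraries left out. The log2 fold change of *Ndc80* turned above 0 with TPM and without control replicate 3. *Ndc80*, whose protein grips the microtubule, measured 6.53, 7.05, 8.96 and 6.76 FPKM in controls and 8.08, 6.54, 6.69 and 6.48 FPKM in cKO testes, and its partner *Nuf2* was higher, with control and cKO means of 16.6 ± 1.78 and 14.7 ± 2.72 FPKM (SD, n = 4). The subunits of a complex with equal numbers of each protein thus differed in mRNA level per length. In the Mis12 complex, which ties Ndc80 to the centromere, *Dsn1* was highest at 24.2 ± 1.78 FPKM in controls and 21.9 ± 3.52 in cKO testes. *Nsl1* was lowest, with 10.5, 4.71, 6.50 and 4.91 FPKM in controls and 6.66, 4.84, 4.75 and 4.61 in cKO testes. Control replicate 1 stands far above the rest for *Nsl1*, and its log2 fold change of -0.29 (interval -0.82 to 0.25) has a wide error and was -0.04 without that library. Of the Knl1 complex, *Knl1*, the scaffold for the Bub proteins, measured 9.84 ± 2.21 FPKM in controls and 9.03 ± 0.73 in cKO testes, while its partner *Zwint* measured 48.9, 37.4, 32.1 and 37.3 FPKM in controls and 43.4, 41.5, 41.9 and 43.0 in cKO testes. *Zwint* was the highest of all 43 genes, and its log2 fold change was 0.14 (interval -0.14 to 0.43). It was 0.26 without control replicate 1 (unadjusted p 0.0147, limma adjusted p = 0.210) and 0.05 without control replicate 3.

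*Cenpa*, the histone H3 variant that marks the centromere, had the largest difference of all members. It measured 5.52, 7.10, 15.2 and 8.11 FPKM in controls and 14.1, 9.70, 12.4 and 11.8 FPKM in cKO testes. Control replicates 1, 2 and 4 lay below every cKO library and control replicate 3 lay above them all, so the groups overlap. The log2 fold change was 0.50 (standard error 0.27, interval -0.09 to 1.10, limma adjusted p = 0.546), and the control spread of *Cenpa* was larger than that of 93.8% of all genes tested. Single control libraries set its size: leaving out control replicate 1 gave 0.31, and leaving out control replicate 3 gave 0.79 (unadjusted p 0.00117, limma adjusted p = 0.318). The same library was highest for *Plk1*, the mitotic kinase of centrosomes and kinetochores, which measured 6.18, 13.1, 39.2 and 12.4 FPKM in controls and 28.9, 21.4, 26.2 and 24.3 in cKO testes (log2 fold change 0.82, interval -0.15 to 1.80, adjusted p = 0.550). Without control replicate 1 the value for *Plk1* was 0.43 and without control replicate 3 it was 1.31.

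Of the 12 inner kinetochore (CCAN) genes, 10 lay below 0 and 2 above, with a median of -0.14, and *Cenpu* was the only one at an unadjusted p below 0.05. *Cenpu* (chromosome 8 of GRCm38, 46552028 to 46580007, + strand), whose protein recruits Plk1 to the kinetochore, measured 4.43, 4.58, 4.58 and 4.35 FPKM in controls and 3.86, 4.02, 3.94 and 3.46 FPKM in cKO testes. These values rest on 232 to 332 fragments each. All 4 cKO libraries lie below all 4 controls, the only member in which the groups do not overlap, and the controls are nearly equal. Of all genes tested, 2.59% were without overlap and lower in cKO testes and 3.64% were without overlap and higher. The log2 fold change of *Cenpu* was -0.23 (standard error 0.10, interval -0.45 to -0.00), at an unadjusted p of 0.0487 and a limma adjusted p of 0.456, and the mean was 0.85 times that of controls. It stayed below the unadjusted threshold without control replicate 1 but not without any other single library, nor with TPM or voom. Of its exonic bases 26.7% overlap *Primpol*, a gene on the opposite strand, and whether the counting used strand is not given in the sources used here, so fragments of the 2 genes may be mixed.

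The other CCAN genes overlapped between the groups. *Cenpt*, which links CENP-A chromatin to Ndc80, was highest at 18.4 ± 2.16 FPKM in controls and 18.5 ± 1.17 in cKO testes. *Cenpl* was lowest at 3.74, 2.82, 3.64 and 2.50 FPKM in controls and 3.53, 2.20, 2.58 and 2.11 in cKO testes. *Cenpp* and *Cenph* had log2 fold changes of -0.27 (interval -0.62 to 0.07) and -0.21 (interval -0.52 to 0.10). *Cenpm*, named after its values were seen, varied most, with 11.1, 4.67, 6.45 and 2.98 FPKM in controls and 5.26, 5.54, 6.34 and 4.59 in cKO testes. Its controls differed 3.74-fold from lowest to highest, and it had the fewest fragments.

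Among the corona genes, whose proteins form the outermost layer of unattached kinetochores, 4 of 5 lay below 0. *Zwilch*, of the complex that brings in dynein, was highest at 18.0, 24.8, 24.9 and 25.0 FPKM in controls and 24.1, 20.9, 20.9 and 16.8 in cKO testes. Here control replicate 1 is the low library, and without it the log2 fold change moved from -0.16 to -0.28 (unadjusted p 0.0387, limma adjusted p = 0.292), while without cKO replicate 4 it was -0.07. *Spdl1*, the dynein adaptor Spindly, measured 11.3 ± 1.01 and 10.4 ± 1.07 FPKM.

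All 3 Ska complex genes, which hold kinetochores on depolymerizing microtubules, lay below 0. *Ska1* measured 9.29, 5.0, 6.74 and 5.69 FPKM in controls and 7.13, 4.46, 4.53 and 4.41 in cKO testes, and *Ska2* measured 5.25, 5.41, 8.92 and 5.91 in controls and 4.70, 4.90, 4.82 and 5.26 in cKO testes. In *Ska1* the 3 lower cKO libraries lie under every control and cKO replicate 1 does not, and in *Ska2* the highest cKO value barely passes the lowest control. The log2 fold changes were -0.37 (interval -0.84 to 0.11) and -0.33 (interval -0.70 to 0.03), with limma adjusted p-values of 0.591 and 0.511. *Ska1* was at -0.20 without control replicate 1 and -0.53 without cKO replicate 1, and *Ska2* was at -0.16 without control replicate 3. *Ska3* was at 10.2 ± 1.21 and 9.63 ± 0.51 FPKM, with a log2 fold change of -0.07, or 0.0051 with TPM.

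The genes that set centromere cohesion and orientation in meiosis I had group means close to each other. *Sgo2a*, the shugoshin that protects meiotic cohesin, measured 4.81, 4.12, 5.80 and 4.24 FPKM in controls and 5.95, 4.27, 5.18 and 4.24 in cKO testes. *Sgo1*, the shugoshin of mitotic centromeres, measured 4.15, 4.66, 5.73 and 4.97 FPKM in controls and 5.77, 4.47, 5.43 and 4.98 in cKO testes. Both have a log2 fold change just above 0, 0.05 (interval -0.29 to 0.39) and 0.08 (interval -0.21 to 0.38). The log2 ratio of *Sgo2a* to *Sgo1* was -0.04 ± 0.20 in controls and -0.08 ± 0.11 in cKO testes (exact permutation test, two-sided, p = 0.743, adjusted over 2 ratios 0.743, n = 4 per group), where the smallest p this design allows is 0.0286. Of the exonic bases of *Sgo2a*, 35.0% overlap *Kctd18* on the opposite strand. *Meikin*, needed for the joint orientation of sister centromeres in meiosis I, measured 8.11, 14.2, 13.2 and 11.3 FPKM in controls and 15.1, 10.8, 10.4 and 8.66 in cKO testes. Its libraries spread 1.75-fold within controls and 1.74-fold within cKO testes, and the group means of 11.7 and 11.2 FPKM are near each other.

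The chromosomal passenger complex corrects faulty attachments. *Incenp*, its scaffold, measured 18.1, 22.8, 32.9 and 20.4 FPKM in controls and 26.4, 22.9, 24.7 and 25.1 in cKO testes, and *Birc5*, encoding survivin, measured 21.5, 12.4, 17.3 and 12.1 FPKM in controls and 15.7, 12.7, 12.5 and 10.4 in cKO testes. They leaned opposite ways without passing the test, with log2 fold changes of 0.11 (interval -0.26 to 0.48) and -0.27 (interval -0.71 to 0.17). Without control replicate 1 they were -0.0013 and -0.11. The kinases of the complex are *Aurkb*, its general form, and *Aurkc*, its germ line form. *Aurkb* measured 8.20 ± 2.01 FPKM in controls and 9.12 ± 1.05 in cKO testes, and *Aurkc* 2.92 ± 0.52 and 2.55 ± 0.74. Their log2 ratio, *Aurkc* to *Aurkb*, was -1.44 ± 0.35 in controls and -1.84 ± 0.55 in cKO testes (exact permutation test, two-sided, p = 0.286, adjusted 0.571, n = 4 per group), a difference within the spread between libraries.

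No gene of the kinetochore's partners or targets passed the test either. Of 28 partners, 26 were tested, 17 lay below 0, and 1, *Cenpx*, was lower at an unadjusted p below 0.05 (20.4 and 17.4 FPKM, limma adjusted p = 0.455). None of the 18 APC/C subunits and activators passed at that threshold, and 10 lay below 0. *Cdc20*, the activator that the checkpoint holds back, was far above the members in level, at 102 ± 30.7 FPKM in controls and 98.5 ± 21.6 in cKO testes. *Sgo2b* and *Kif2b*, on the list of partners, were not tested and were at 0 in some libraries, with at most 0.115 FPKM.

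The members varied together across libraries more than they differed between groups. Control replicate 3 was the highest control in 21 of the 43 genes (48.8%), against 21.8% of all genes tested. Among cKO libraries, replicate 1 was highest in 37 of 43 (86.0%), against 40.7%, and replicate 4 was lowest in 31 (72.1%), against 28.5%. Control replicate 1 was the highest control in 17 members (39.5%, against 41.9% of all genes) and the lowest in 14 (32.6%, against 30.2%). These shares were near those of all genes tested. Control replicate 1 was lowest, with replicate 3 highest, in 12 genes (27.9%, against 11.3% of all genes), among them *Cenpa*, *Bub1*, *Sgo1* and *Incenp*. The mean level of the 43 genes on the log2 scale was 3.53, 3.39, 3.66 and 3.33 in the control libraries and 3.60, 3.32, 3.37 and 3.25 in the cKO libraries. Library order is described without a test, since the genes of a library share its cells and its preparation.

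**Figure D4:**
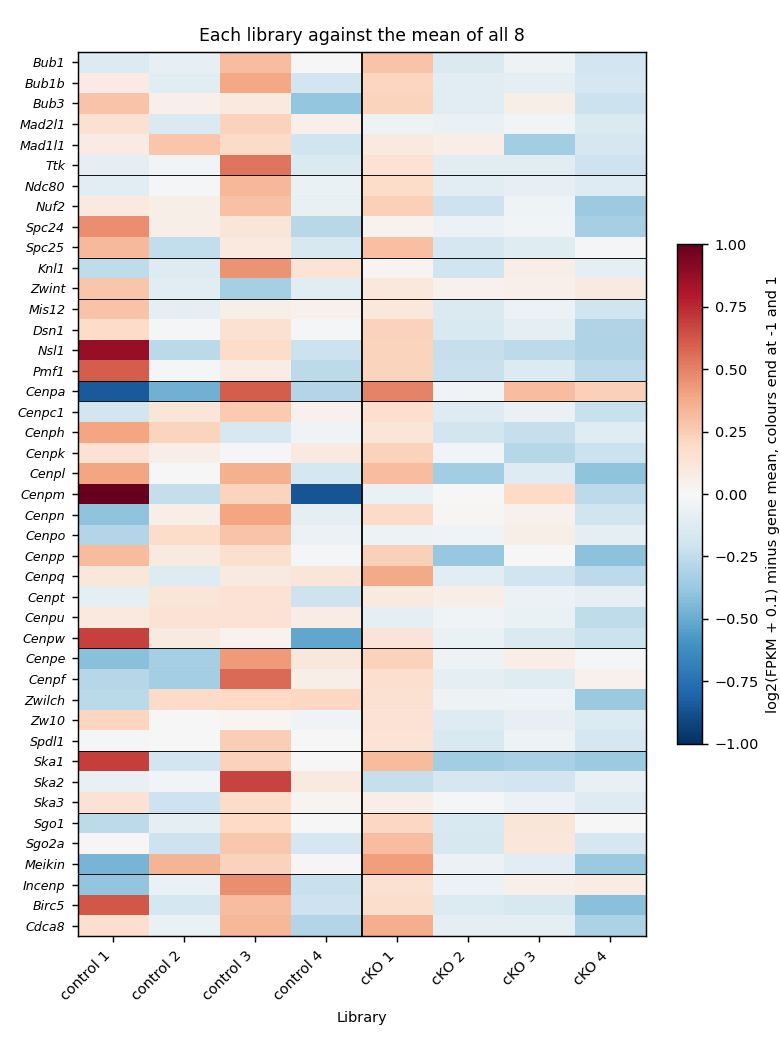
Log2(FPKM + 0.1) of each of the 43 genes in each library minus the gene's mean over all 8 libraries (red above, blue below, colours end at -1 and 1), with the 4 control libraries left of the black line. The columns of control replicate 3 and cKO replicate 1 are mostly red and that of cKO replicate 4 mostly blue, while control replicate 1 holds the deepest red and is mixed.

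Control replicate 1 stood apart from the other libraries. Its mitochondrial share of fragments was 0.464%, against 2.20% to 3.74% in the others, and it held 13978342 fragments, where the 8 libraries held 13978342 to 19583091. Without it the members at an unadjusted p below 0.05 were 3 lower (*Cenpu*, *Zwilch* and *Ska2*) and 1 higher (*Zwint*), none with an adjusted p below 0.210, against 5.90% and 9.66% of all genes, and 35 of 43 still lay below 0. *Spdya*, the targeted gene, measured 20.8, 21.0, 23.8 and 19.7 FPKM in controls and 30.5, 22.2, 26.1 and 17.7 in cKO testes, so its level over the whole gene does not separate the groups, and with only exon 2 deleted it is no check of the labels.

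Markers of the cells in the testis were examined beside these genes, and none of them had an adjusted p below 0.05 (smallest 0.172). The pachytene marker *Hspa2* measured 253 to 451 FPKM and *Ldhc* 248 to 631 FPKM over the 8 libraries, whereas *Hist1h1t* was below 1 FPKM in all of them and the spermatid markers *Tnp1* and *Prm1* were at or near 0, with 7 of 10 spermatid markers at 0 in some library. In the study's staining, H1t, the protein of *Hist1h1t*, was found in most pachytene cells of both groups shortly before RA11.5. Why the *Hist1h1t* mRNA measured low here was not tested. All 9 pachytene markers tested lay below 0 (median -0.30), 3 of them at an unadjusted p below 0.05, with a summed level over the 12 listed of 1456 to 2247 FPKM in controls and 1234 to 1875 in cKO testes. All 9 peritubular, endothelial and immune markers tested lay above 0 (median 0.57), 5 of them at an unadjusted p below 0.05, with summed levels over the 11 listed of 64.3 to 94.8 and 97.7 to 130 FPKM. At that threshold 5.89% of all genes tested were higher and 5% lower. Of 6 Leydig markers 3 were tested, all above 0, and 2 passed at that threshold, and the 11 Sertoli markers had a median of 0.13. The 18 proliferation genes, by contrast, had a median of 0.02, with 1 higher at an unadjusted p below 0.05. They summed to 419 to 552 FPKM in controls and 418 to 518 in cKO testes. Among them *Mki67* was at 54.1 FPKM in control replicate 3 and 15.9 to 28.4 FPKM in the other libraries. The 11 markers of undifferentiated spermatogonia tested had a median of 0.08, with 1 higher at an unadjusted p below 0.05. The 9 markers of differentiating spermatogonia had a median of 0.04, with 2 higher and 2 lower. The part of cell makeup in the small differences of the kinetochore genes was not tested.

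**Figure D5:**
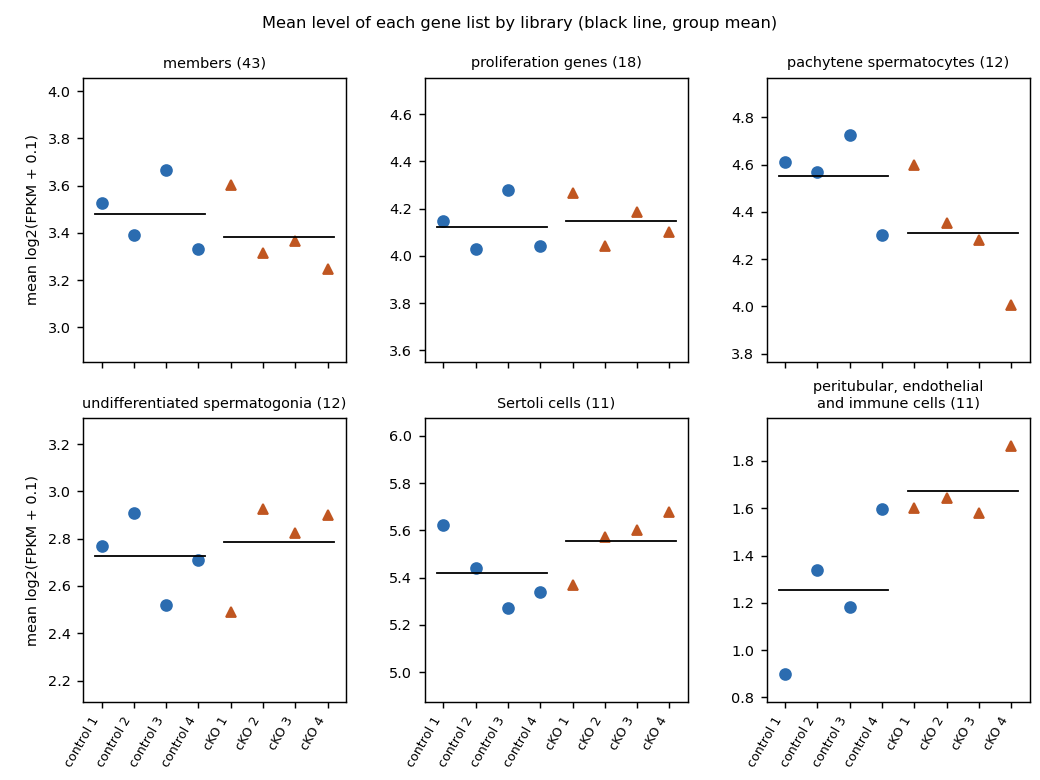
Mean log2(FPKM + 0.1) of the genes of 6 lists (y axis, each panel spanning the same range of values) in each of the 8 libraries, with the number of genes in brackets, circles for control, triangles for cKO and black lines for group means. The members, the proliferation genes and the pachytene markers share their highest control library, replicate 3, and the peritubular, endothelial and immune markers are at 0.90 to 1.60 in controls and 1.58 to 1.86 in cKO testes.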

How the data were processed

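RNA was measured in whole testes of 4 control and 4 cKO mice, grouped by the genotype in the labels. The authors deposited FPKM values, made with a sequencing company's software, for 54532 genes, in a table and again in a file per library with equal values. The submitters' processing notes name GRCm38 (mm10). The aligner, the counter, the annotation and the use of strand are not given in the sources used here. The labels name a column kit for RNA, the study's methods another reagent and slightly earlier tamoxifen injections. FPKM multiplied by gene length gave whole fragments in 100% of values (tolerance 0.02), 13978342 to 19583091 per library, and this recovery was used only for depth and an alternative. Differences were tested with limma 3.58.1 in R 4.3.3 (eBayes with trend) on log2(FPKM + 0.1) over the 12141 protein-coding genes whose mean FPKM passed 1 in each group, a scale that understates changes of low genes, with Benjamini-Hochberg adjustment over all of them. The procedure was tested on simulated data with larger changes than any member showed and without an outlying library. That test does not cover differences as small as those of the members. Ratios were tested with exact permutation tests (scipy 1.17.1). Figures were drawn with matplotlib 3.10.9.

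The members, the marker lists and the tests were chosen with earlier results of these data known. The genes named were the 8 members with the smallest p, the highest and lowest member of each complex by level, 10 genes chosen for their role and 4 partners. Other genes were named after their values were seen. Replicate numbers occur in both groups, and were not taken as pairs because the labels do not say that a number marks a litter. The mice are separate animals by the study's methods. Alternatives were other pseudocounts, filters and scalings, array weights, a replicate block, voom on the recovered fragments and each library left out. The other experiments of the study were not analysed here.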

Additional observations from a re-analysis of the deposited data

Results flagged for a closer look

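Of 94 groups of 4 libraries examined, 8 held 1 library far from the other 3 by Dixon's criterion, where chance gives about 1 in 20. In 4 of them this was cKO replicate 1 on the high side. There *Bub1b* measured 32.6 FPKM against 25.0 to 26.3 in the other cKO libraries, *Ndc80* 8.08 against 6.48 to 6.69, *Nsl1* 6.66 against 4.61 to 4.84 and *Ska1* 7.13 against 4.41 to 4.53. Control replicate 3 was high for *Ttk*, at 15.8 FPKM against 9.85 to 10.7, and for *Spdl1*, at 12.8 against 10.7 to 10.9. The low values were *Cenpq* in control replicate 2, at 13.4 FPKM against 15.6 to 16.0, and *Zwilch* in control replicate 1, at 18.0 against 24.8 to 25.0.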

How the results depend on the processing

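No member was called DE or had an adjusted p below 0.05 under any alternative run, in which 0 to 3 of all genes were called, or 57 with array weights. The count of members at an unadjusted p below 0.05, 1 as reported, was 3 with the replicate block (*Cenpp*, *Ska1* and *Birc5*, all lower), 7 with array weights (*Zwint* higher, and *Mad1l1*, *Cenpc1*, *Cenph*, *Cenpu*, *Zwilch* and *Ska2* lower), and 0 with voom, with TPM, with centred libraries and with filters at a mean of 0.1 over all libraries or of 5 FPKM in both groups, which kept 36 members. The filter of 5 FPKM in both groups dropped *Cenpu*, whose control mean was 4.48 FPKM, so the count of 0 there holds no test of that gene. Over all genes tested the share at this threshold was 14.6% with the block (members 6.98%) and 20.9% with array weights (members 16.3%). With 1 library left out the count of members ran from 0 to 5, the highest without cKO replicate 1 (*Nuf2*, *Dsn1*, *Cenpl*, *Cenpp* and *Ska1*, all lower, 11.6% of members against 12.8% of all genes), with 4 without control replicate 1 (9.30% against 15.6%) and 2 without control replicate 3 (*Cenpa* and *Incenp*, both higher, 4.65% against 7.11%). Replicate numbers were not taken as pairs, since the labels do not say what a number marks. Deviations of same-numbered libraries did have correlations above 0, of 0.288, 0.131, 0.0757 and 0.406, and 3 of 4 control and 2 of 4 cKO libraries correlated best with their own number. Whether the numbers mark pairs was not tested.

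The median of the members was below 0 in every setting run, from -0.20 without cKO replicate 1 to -0.02 with TPM, and 0.06 to 0.21 below that of all genes on the log2 scale. TPM moved the split of all genes at an unadjusted p below 0.05 from 715 higher and 607 lower to 907 and 360. Log2 fold changes near 0 turned sign, in 10 of the 43 members with TPM, 5 with array weights, 2 with centred libraries, 1 with voom and 2 to 12 with 1 library left out. Of the genes named by rule, those with TPM were *Ska3* at 0.0051, *Ndc80* at 0.0072, *Meikin* at 0.021, *Bub1* at 0.031 and *Cdc20* at 0.056, and with array weights *Cenpt* at -0.082 and *Incenp* at -0.024. With 1 library left out, *Cenpt* ran from -0.049 to 0.067, *Incenp* from -0.0013 to 0.28, *Ndc80* from -0.14 to 0.029, *Bub1b* from -0.17 to 0.034, *Knl1* from -0.20 to 0.033, *Meikin* from -0.22 to 0.057, *Sgo2a* from -0.047 to 0.15, *Bub1* from -0.15 to 0.048, *Ttk* from -0.21 to 0.019, *Cdc20* from -0.23 to 0.10 and the difference in the log2 ratio of *Sgo2a* to *Sgo1* from -0.097 to 0.048. The causes were not tested.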
